A study of Mus musculus with 10 samples.

Results

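Lin37 knockout cells of the exon 6 clone were compared with the same clone after Lin37 had been put back. The clone, 632-2, is a line of NIH3T3 cells (immortalized mouse fibroblasts) that was grown from 1 cell after a Cas9 nickase had introduced small insertions or deletions where intron 5 of Lin37 meets exon 6. It carried an episome, a plasmid kept outside the chromosomes, that expressed luciferase in the KO cells and wild-type Lin37 in the rescue cells. All cells had been kept without serum for 60 h before RNA was extracted, and every cell compared, rescue cells included, holds the mutated chromosomal Lin37. The samples were chosen by their labels: 6 of the 10 libraries of the series are of this clone, 3 KO and 3 rescue. In each group, libraries 2 and 3 are technical replicates of 1 biological replicate and were averaged, so that 2 KO replicates were compared with 2 rescue replicates. All values come from 1 clone, and features of the clone other than the loss of Lin37 were not tested.

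In cells that have left the cell cycle, the DREAM complex sits on the promoters of cell cycle genes and keeps them silent. It is built from the MuvB core (Lin9, Lin37, Lin52, Lin54 and Rbbp4), a pocket protein (p130, encoded by Rbl2, or p107, encoded by Rbl1) and E2F4 or E2F5 with a DP partner (Tfdp1, Tfdp2). Genes with their maximum in G1/S are typically bound through E2F sites, and genes with their maximum in G2/M through the CHR element, which Lin54 contacts. When cells return to the cycle, MuvB leaves the pocket protein and joins B-Myb (Mybl2) and FoxM1 (Foxm1) to activate the late genes.

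Shown here are 2 guide sequences that the study designed for exon 6, the exon targeted in this clone. Whether these guides made the clone was not tested. Both are written 5′ to 3′ and run opposite to the gene.
exon 6 guide 3: catacgtatctggggtggta
exon 6 guide 2: cttgatcacatacgtatctg
In the Lin37 transcript searched (GENCODE M21, GRCm38), exon 6 of 9 spans chr7:30556858-30557024 on the minus strand. The first 9 bases of guide 3 match chr7:30557016-30557024 and the first 17 bases of guide 2 match chr7:30557008-30557024, at the 5′ end of that exon. The remaining bases of each guide were not found in the transcript.

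Lin37 itself was measured first. After rescaling, it was at 0.510, 0.341 and 0.329 RPKM (a read density scaled to gene length and to the reads of the library) in the KO libraries and at 6.0, 6.22 and 5.40 RPKM in the rescue libraries. Every KO library lay below every rescue library. The gene (chr7:30555441-30559838, minus strand) had a log2 change of -2.80 (SE 0.135, adjusted p = 0.0111, limma), with 5.90 ± 0.136 RPKM in rescue and 0.422 ± 0.123 RPKM in KO replicates (SD, n = 2). Here and throughout, a log2 change is KO minus rescue on log2(RPKM + 0.5), which understates the change of genes with low levels, and p-values come from limma and were adjusted over all genes tested. Reads from the episome may count toward Lin37, and they were not told apart from reads of the chromosomal gene.

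The largest fall was not in Lin37 but in Gm8802, which the annotation gives as a processed pseudogene on chromosome 5 (chr5:7857108-7857847). It was at 0.842, 0.388 and 0.400 RPKM in the KO libraries and at 51.3, 45.3 and 40.2 RPKM in the rescue libraries. Its log2 change was -5.43 (SE 0.223, adjusted p = 0.0111), and its replicates averaged 0.618 ± 0.316 (KO) and 47.0 ± 6.01 RPKM (rescue; SD, n = 2). Of all stretches of 31 bases in its transcript, 27.3% also stand in a transcript of Lin37 and in that of no other gene. Whether reads of Lin37 were counted there was not tested.

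The 6 libraries were alike in cell type but not in every other respect. All 10 fibroblast markers checked were above 1 RPKM in each library. The summed level of 6 adipocyte markers was at most 0.173 RPKM, of 5 epithelial markers at most 0.189 RPKM and of 4 endothelial markers at most 0.192 RPKM. Of 5 leukocyte markers, with sums of 0.866 to 1.91 RPKM, Cd68 gave most of the signal, and of 6 muscle markers, with sums of 2.11 to 4.31 RPKM, 1 was above 1 RPKM in every library. Rescue library 2 stood apart at the lowest levels: over 1026 olfactory receptor genes, which fibroblasts are not known to use, its levels summed to 59.1 RPKM, against 2.46 to 4.93 RPKM in the other 5 libraries. It had a value above 0 at 465 of these genes, and the others at 35 to 118. The 13 genes with a mean above 100 RPKM and a log2 change under -2 were all predicted genes, Gm10800 among them, and none was called (lowest adjusted p 0.39). The study took out entries for the repeat GSAT_MM before its own test. No entry was taken out for that reason here, and whether these 13 genes hold such repeats was not tested. Gm10800 was at 11700, 183000 and 2180 RPKM in KO and at 170000, 576000 and 77700 RPKM in rescue libraries. The counts of called genes and of called list members are given with and without rescue library 2.

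Of the 15922 genes whose mean reached 0.1 RPKM, 189 were called higher in KO cells (1.19% of the genes tested) and 9 were called lower (0.0565%), with an adjusted p under 0.05. Genes of chromosome segregation and mitosis led the rise, followed by genes of DNA replication and repair. In bulk RNA, a higher level of a gene in more cells and more of its RNA per cell cannot be told apart. Without rescue library 2, 151 genes were higher and 4 were lower, 146 and 4 of them among the 189 and the 9. When any of the 4 replicates was left out (KO replicate 1, KO replicate 2, rescue replicate 1 or rescue replicate 2), no gene passed the threshold, with a lowest adjusted p of 0.0655 to 0.254 and 718 to 1515 genes higher at an unadjusted p under 0.05. Such a fit has 1 sample in a group and takes its spread from the other group, so that the loss of the calls says nothing about how stable single genes are. Without rescaling, 10040 genes were higher and 47 lower, with the median of all genes at 0.689 on the log2 scale, and without the minimum level no gene passed (limma, lowest adjusted p 0.347). The study calls the replicates biological without stating that they were separate cultures, and the p-values measure only the spread between them.

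**Figure D1:**
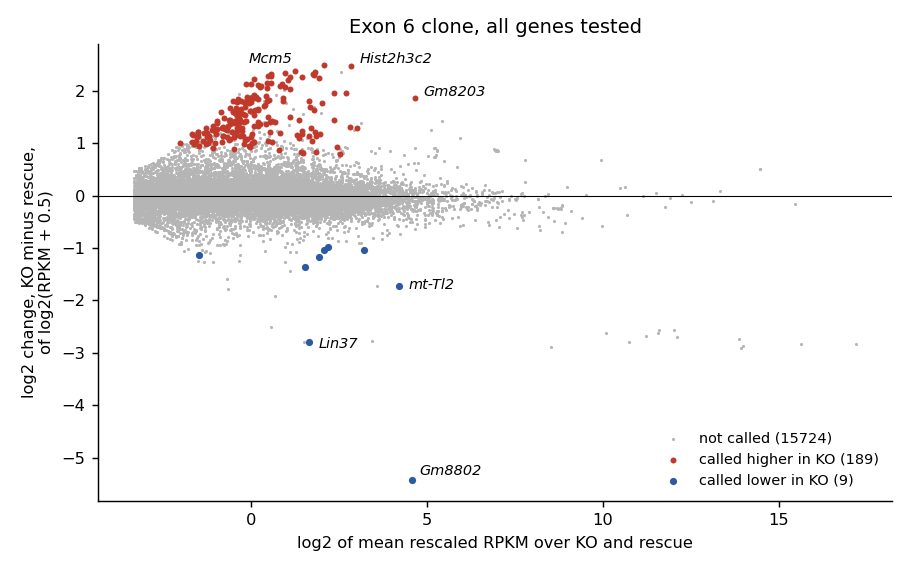
Log2 change (KO minus rescue, of log2(RPKM + 0.5), vertical axis) against the log2 of the mean rescaled RPKM over both groups (horizontal axis) for all 15922 genes tested in the exon 6 clone. The 189 genes called higher (red) form a band that reaches 2.50, the 9 called lower (blue) include Lin37 at -2.80 and Gm8802 at -5.43, and the uncalled genes at high levels with changes near -2.8 are predicted genes such as Gm10800.

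The 189 genes rose from low levels. Their median level stood at 0.228 RPKM when Lin37 was present and at 1.61 RPKM when it was not, and the median ratio of KO to rescue was 7.09 over the 187 genes with a rescue level above 0. In rescue cells, 140 of the 189 genes (74.1%) had a mean under 0.5 RPKM, and in KO cells 1 did, against 32.3% and 30.5% of all genes tested. With rescue library 2 left out, 138 of the 189 genes had a rescue mean under 0.5 RPKM and the median was 0.245 RPKM. The median gene among the 189 stood at the 16.3 percentile of all tested genes in rescue cells and at the 60.3 percentile in KO cells, so that these genes moved from the bottom of the range to just above its middle. The genes were called on these same levels, so the low start and the move follow in part from the calls. Only 5 reached more than 10 RPKM in KO cells. For 187 of the 189, every KO library lay above every rescue library, against 9.54% of all genes tested. The same libraries gave the calls, so such separation largely follows from the calls. The count was again 187 when rescue library 2 was left out, against 17.1% of all genes. The remaining 2, which were looked up after their values were seen, were the histone genes Hist1h2ak and Hist2h2ac.

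**Figure D2:**
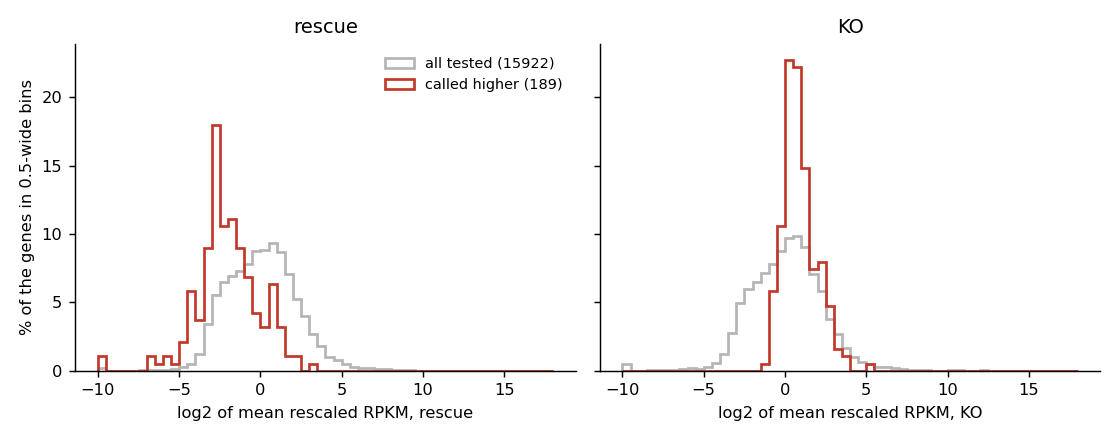
Distribution of the mean rescaled RPKM (log2, horizontal axis) in rescue (left) and KO cells (right), as the percent of genes in bins of 0.5 log2 units, for all 15922 genes tested (grey) and the 189 called higher (red). The 189 genes lie below most others in rescue cells, with a median of 0.228 RPKM, and have a median of 1.61 RPKM in KO cells. Levels under the lowest bin are drawn in it.

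The 10 largest rises were Gm15452, Hist2h3c2, Mcm5, Top2a, Troap, Gtse1, Kif18b, Anln, Bub1b and Asf1b. Mcm5, a subunit of the helicase that opens DNA at replication origins, was at 4.52, 3.65 and 4.55 RPKM in the KO libraries and at 0.309, 0.418 and 0.680 RPKM in the rescue libraries. It rose 10.0-fold (log2 change 2.38, SE 0.161, adjusted p = 0.0111). Top2a, the topoisomerase that untangles sister chromatids, was at 6.27, 7.05 and 5.24 RPKM in KO and at 0.610, 0.851 and 1.17 RPKM in rescue libraries. The groups did not overlap for either gene, and Top2a rose 7.66-fold (log2 change 2.37, SE 0.173, adjusted p = 0.0112).

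Kif18b, a kinesin that acts on spindle microtubules, was at 2.73, 2.56 and 3.27 RPKM in the KO libraries and at 0.128, 0.0929 and 0.308 RPKM in the rescue libraries. It rose 17.2-fold (log2 change 2.32, SE 0.122, adjusted p = 0.0111). Anln, which encodes the scaffold protein anillin of the cytokinetic ring, was at 5.85, 6.0 and 6.40 RPKM in KO and at 0.601, 1.08 and 1.05 RPKM in rescue libraries. Its levels were 6.03 ± 0.249 and 0.832 ± 0.328 RPKM (SD, n = 2), with a log2 change of 2.31 (adjusted p = 0.0128). Troap and Gtse1, whose products bind spindle microtubules, rose 11.8-fold and 7.61-fold. Bub1b, the checkpoint kinase BubR1, rose 16.7-fold from 0.168 RPKM, and Asf1b, a histone chaperone of S phase, rose 18.7-fold from 0.141 RPKM. These high ratios rest on rescue levels near the low end of the range.

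The promoters of genes that rose are shown because DREAM reaches its targets through short elements near the start site. The letters TTTGAA, the commonest form of the CHR, and the E2F motifs TTTCCCGC, TTTGGCGC, TTTCGCGC and TTTGCCGC were searched on both strands from 250 bases before to 50 bases after the start (RefSeq, GRCm38.p6). Matches of different E2F motifs can overlap each other. Of 133 protein coding genes called higher that have a window, 62 (46.6%) held TTTGAA and 18 (13.5%) an E2F motif. Over 8855 tested protein coding genes with a window, the shares were 14.2% and 4.87%, and over all 27025 genes with a RefSeq window they were 20.2% and 2.60%. A match is a description of letters and not evidence of binding.

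The following windows run from 180 bases before to 30 bases after the start, 5′ to 3′ on the strand of the gene, with the searched motifs in capitals. They belong to the called protein coding genes with the largest rise that held TTTGAA (Top2a, Kif18b and Anln) or an E2F motif without it (Mcm5 and Chek2).
Top2a: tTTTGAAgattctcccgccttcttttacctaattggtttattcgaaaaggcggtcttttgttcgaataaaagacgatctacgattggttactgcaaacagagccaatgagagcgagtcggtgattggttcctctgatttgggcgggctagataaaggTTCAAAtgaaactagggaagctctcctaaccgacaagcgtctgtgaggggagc
Kif18b: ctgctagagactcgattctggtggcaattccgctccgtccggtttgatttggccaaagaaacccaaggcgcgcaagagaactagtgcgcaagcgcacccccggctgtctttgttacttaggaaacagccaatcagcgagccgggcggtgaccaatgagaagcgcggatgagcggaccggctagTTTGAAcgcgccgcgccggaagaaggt
Anln: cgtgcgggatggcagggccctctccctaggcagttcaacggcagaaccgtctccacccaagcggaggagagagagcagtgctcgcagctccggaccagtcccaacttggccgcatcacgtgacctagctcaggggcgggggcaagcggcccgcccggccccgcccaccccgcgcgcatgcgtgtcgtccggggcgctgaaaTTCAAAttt
Mcm5: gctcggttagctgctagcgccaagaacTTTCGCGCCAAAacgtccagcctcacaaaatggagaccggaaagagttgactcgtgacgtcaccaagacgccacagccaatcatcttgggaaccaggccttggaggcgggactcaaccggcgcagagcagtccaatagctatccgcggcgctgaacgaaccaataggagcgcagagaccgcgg
Chek2: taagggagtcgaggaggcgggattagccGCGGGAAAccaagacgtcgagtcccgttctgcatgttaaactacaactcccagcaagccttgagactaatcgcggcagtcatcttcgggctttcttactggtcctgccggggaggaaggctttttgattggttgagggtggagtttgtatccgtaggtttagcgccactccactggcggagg
The windows are chr11:99024160-99024369, minus strand (Top2a), chr11:102925095-102925304, minus strand (Kif18b), chr9:22389177-22389386, minus strand (Anln), chr8:75109329-75109538, plus strand (Mcm5) and chr5:110839803-110840012, plus strand (Chek2). Counted from the start site at 1, TTTGAA or its reverse complement begins at -179 and -23 in Top2a, at 4 in Kif18b and at 22 in Anln. The E2F motifs begin at -153 and -149 in Mcm5, where they overlap, and at -152 in Chek2. The rises of these genes were 2.37, 2.32, 2.31, 2.38 and 1.62 on the log2 scale in the order printed.

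Sequence shared with other genes limits some of these values. All stretches of 31 bases in the transcript of Gm15452, the largest rise (log2 change 2.50, adjusted p = 0.0111), also stand in Cks2, a called gene that encodes a cofactor of cyclin-dependent kinases. Hist2h3c2 (2.48) shares 64.2% of its stretches with other genes. Among the 189 genes called higher, 15 shared more than 50% of their stretches with another gene and 147 shared less than 5%. Pseudogenes made up 16 of the 189 and protein coding genes 169, against 2363 and 11250 of the 15922 genes tested.

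**Figure D3:**
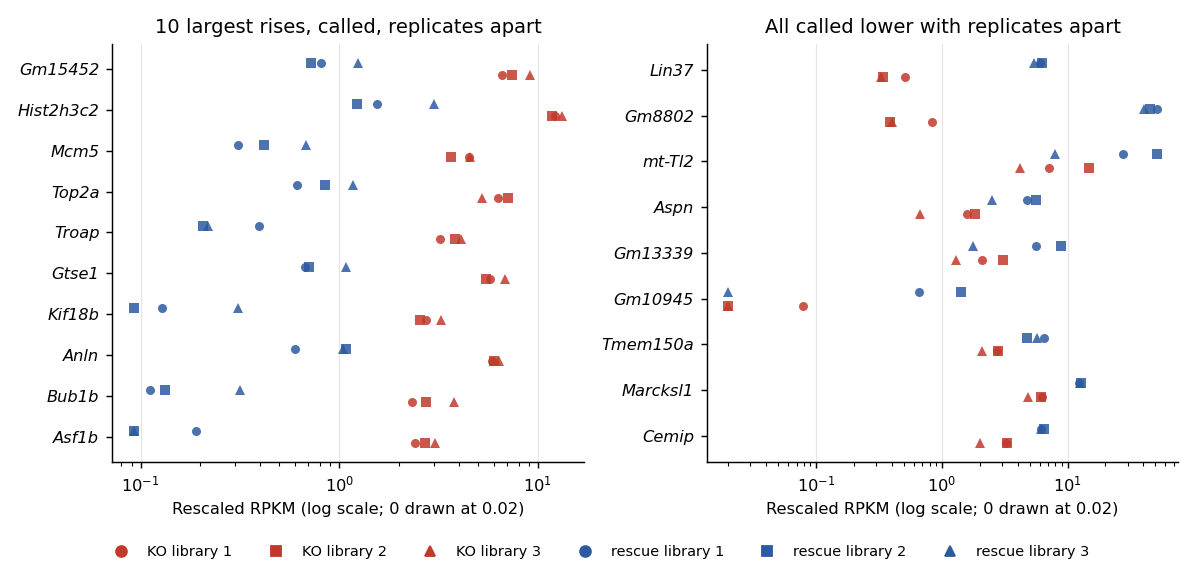
Rescaled RPKM in each library (horizontal axis, log scale, values of 0 drawn at 0.02) for the 10 largest rises (left) and the 9 genes called lower (right), with KO in red, rescue in blue and the library by the shape of its point. Every KO point lies to the right of every rescue point for the 10 rises, while the libraries overlap for mt-Tl2, Gm13339 and Gm10945.

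Among the genes of DREAM and its partners, 2 rose and 1, Lin37, fell, of 14 tested. Lin54, the DNA-binding subunit of MuvB, was at 1.84, 2.23 and 1.70 RPKM in the KO libraries and at 0.365, 0.355 and 0.531 RPKM in the rescue libraries. It rose 4.71-fold (log2 change 1.41, SE 0.118, adjusted p = 0.0136). Foxm1, the forkhead factor that activates late cell cycle genes with MuvB, was at 4.80, 4.60 and 5.10 RPKM in KO and at 0.616, 0.420 and 0.801 RPKM in rescue libraries, and rose 7.87-fold (log2 change 2.26, SE 0.105, adjusted p = 0.0111). The KO and rescue libraries did not overlap for either.

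The other 11 genes of the complex were not called. Lin9, a structural subunit of MuvB, had a log2 change of 0.81 (adjusted p = 0.0972), Rbl1 of 0.67 (adjusted p = 0.125) and Mybl2 of 0.41 (adjusted p = 0.459). For these 3 genes, all KO libraries lay above all rescue libraries. Their ratios of KO to rescue were 4.87, 2.53 and 6.29, from rescue levels of 0.122, 0.319 and 0.0336 RPKM. All 3 are on the study's list of up-regulated genes. Lin52 (0.12), Rbbp4 (0.020), Rb1 (0.16), Rbl2 (0.15), E2f5 (0.14), Tfdp1 (0.17) and Tfdp2 (0.17) had smaller log2 changes with adjusted p between 0.707 and 0.974, and E2f4, the highest of the list with 8.67 (KO) and 9.82 RPKM (rescue), had a log2 change of -0.17 (adjusted p = 0.648). The list had a median log2 change of 0.16, against 0.0020 over all genes tested. Of 5 tested E2F genes outside DREAM, E2f1, an activator of G1/S genes, rose (log2 change 1.18, adjusted p = 0.0164) from 1.49 to 4.0 RPKM. E2f2 had 0.210 (KO) and 0.0134 RPKM (rescue) and was not called (log2 change 0.47, adjusted p = 0.302).

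Genes of mitosis held the largest shares of called members. Of 30 genes for mitotic kinesins, the spindle and cytokinesis, 26 rose, with a median log2 change of 1.65, and for all 30 every KO library lay above every rescue library, against 9.54% of all genes. Of 23 mitotic cyclins and kinases tested, 18 rose (median 1.78), and of 37 genes of the kinetochore and spindle checkpoint, 20 rose (median 1.11). No tested member of these lists fell. Bub1 stands both among the mitotic cyclins and kinases and among the genes of the kinetochore and spindle checkpoint. The lists, like the genes named, were chosen with earlier results of these data known, and the shares are to be read against the 1.19% of all tested genes. Without rescue library 2, 21 of the 30, 14 of the 23 and 17 of the 37 were called.

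Single genes of these lists showed how far the groups lay apart. Pkmyt1, the kinase that holds Cdk1 inactive, was at 3.90, 2.98 and 4.36 RPKM in the KO libraries and at 0.526, 0.574 and 0.560 RPKM in the rescue libraries (log2 change 2.03, adjusted p = 0.0111). Tpx2, which activates the Aurora A kinase on the spindle, rose 11-fold, from 0.228 ± 0.00983 to 2.51 ± 0.0815 RPKM (SD, n = 2). Nek2, a centrosome kinase, rose 21.8-fold from 0.0666 RPKM, and Bub1, a checkpoint kinase, rose 25-fold from 0.0602 RPKM. Ndc80, which ties kinetochores to microtubules, was at 1.95, 2.31 and 2.10 RPKM in KO and at 0, 0.137 and 0.0913 RPKM in rescue libraries. Its log2 change was 2.22 (SE 0.152, adjusted p = 0.0111). Mad2l1 and Cenpe, of the spindle checkpoint and the kinetochore, rose 6.17-fold and 10.9-fold. Kif20b, a kinesin of cytokinesis, rose by 2.09 on the log2 scale, and Ttk, the checkpoint kinase Mps1, by 1.48. Ccnb2, cyclin B2, had a log2 change of 1.01 that was not called (adjusted p = 0.0887), although its 3 KO libraries (0.581, 0.601 and 0.912 RPKM) lay above its 3 rescue libraries (0.0215, 0.0299 and 0.261 RPKM).

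Other genes that act on chromosomes and on the centrosome rose in smaller shares. Of 19 genes for condensin, cohesin and separase, 10 rose (median log2 change 0.93), among them the condensin subunits Smc2 (2.15), Ncaph (1.78) and Smc4 (1.69). Of 17 genes listed under centriole duplication, Haus genes included, 5 rose (median 0.63). Among them were Stil (1.44), Haus6 (1.41), which acts on spindle microtubules, and Sass6 (1.38). Of 22 genes of the ubiquitin ligases APC/C and SCF, 2 rose: Cdc20, which activates APC/C in mitosis (log2 change 2.27, adjusted p = 0.0128), and Ube2c, its ubiquitin-conjugating enzyme (1.55, adjusted p = 0.0124). The median of that list was 0.14. Of 31 genes of chromatin and nuclear structure, 7 rose (median 0.47), with Asf1b (2.29), Chaf1a (2.25), which deposits histones behind the fork, and Atad2, a chromatin factor of S phase, which rose 4.56-fold. Without rescue library 2, the counts were 8 of 19 for condensin, cohesin and separase, 4 of 17 for centriole duplication, 2 of 22 for the ubiquitin ligases and 5 of 31 for chromatin and nuclear structure.

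Genes of DNA replication and repair rose as well. Of 22 genes of origin licensing and the helicase, 7 rose (median log2 change 0.74), and for 18 of the 22 all KO libraries lay above all rescue libraries, against 9.54% of all genes. Cdc45, a helicase subunit, was at 3.10, 3.22 and 3.45 RPKM in the KO libraries and at 0.590, 0.285 and 0.804 RPKM in the rescue libraries (5.67-fold, adjusted p = 0.0111). Gins2, another helicase subunit, rose by 1.43, whereas Orc1, the largest origin recognition subunit, had a log2 change of 0.80 that was not called (adjusted p = 0.109). Of 27 genes of the DNA polymerases and the fork, 6 rose (median 0.60), Top2a, Clspn (1.61) and Lig1 (1.41) with the smallest p. Of 23 genes of homologous recombination and Fanconi anaemia, 8 rose (median 1.01), among them the kinase gene Chek2 (1.62), the nuclease gene Eme1 (1.33), the helicase gene Blm (1.17) and Rad54l (1.06). Of 13 genes of nucleotide synthesis, the 2 called were the ribonucleotide reductase subunits Rrm2 (1.29) and Rrm1 (1.17), and the median of the list was 0.37. Without rescue library 2, 5 genes of origin licensing, 4 of the polymerases and the fork, 7 of homologous recombination and 2 of nucleotide synthesis were called.

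Replication-dependent histone genes had a high median with few calls. Of 54 tested, 4 rose and none fell, their log2 changes ranging from -0.86 to 2.48 around a median of 0.78. Hist2h3c2 was at 12.2, 11.8 and 13.3 RPKM in the KO libraries and at 1.55, 1.23 and 2.99 RPKM in the rescue libraries. Hist1h3i (log2 change 1.31, adjusted p = 0.0164) shares 93.2% of its stretches of 31 bases with other genes, so that reads cannot be assigned to single histone genes with certainty. Of the 54, 1 was called without rescue library 2.

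**Figure D4:**
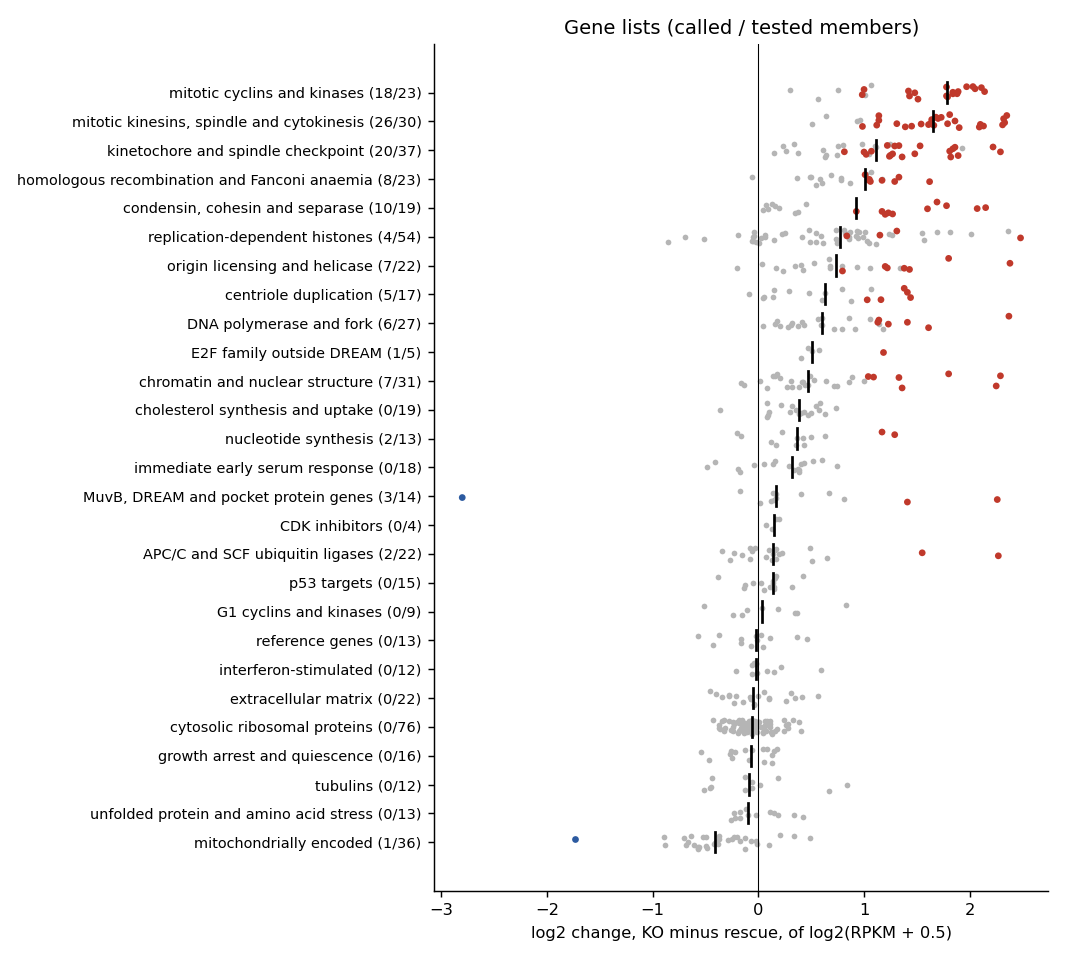
Log2 change (KO minus rescue, of log2(RPKM + 0.5)) of every tested member of 27 gene lists, 1 point per gene, with members called higher in red, called lower in blue and not called in grey, and a black bar at the median of the list. Mitotic cyclins and kinases (18 of 23 called) and mitotic kinesins (26 of 30) stand at the top, and the cytosolic ribosomal proteins (0 of 76) lie around 0.

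Of all genes tested, 1.19% were called higher and 0.0565% lower, and at those shares a short list holds few called genes or none, so that a count of 0 says nothing particular about the lists that follow. None of the 9 G1 cyclins and kinases tested, of 4 CDK inhibitors, of 15 p53 targets, of 18 immediate early genes of the serum response, of 16 genes of growth arrest and of 22 extracellular matrix genes passed the threshold (limma, adjusted p under 0.05). Their medians lay between -0.074 and 0.31. The smallest p among the G1 genes belonged to Ccnd2, cyclin D2, with 8.07, 8.15 and 8.98 RPKM in KO and 12.1 RPKM in each rescue library (log2 change -0.52, adjusted p = 0.148). Cdkn2c, the inhibitor p18, had a log2 change of 0.19 (adjusted p = 0.597) and Plk2, a p53 target, of -0.38 (adjusted p = 0.398). Nr4a1, an immediate early gene, had a log2 change of 0.60 (adjusted p = 0.113). Pdgfra, a receptor for platelet-derived growth factor, had 25 (KO) and 36.8 RPKM (rescue; log2 change -0.54, adjusted p = 0.243), and Col4a1, a collagen of basement membranes, had 22.4 and 15 RPKM (0.57, adjusted p = 0.173).

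Lists outside the cell cycle are given in the same way, beside the same 1.19% and 0.0565%. None of 12 tubulin genes, 12 interferon-stimulated genes, 13 genes of protein and amino acid stress, 76 cytosolic ribosomal protein genes and 13 reference genes was called, and their medians lay between -0.096 and -0.026. Of these, Tubb6 (0.84, adjusted p = 0.185), Bst2 (0.60, adjusted p = 0.554), Chac1 (0.43, adjusted p = 0.357), Rpl29 (-0.43, adjusted p = 0.292) and the glycolytic gene Pgk1 (0.46, adjusted p = 0.279) had the smallest p of their lists. Of 19 genes of cholesterol synthesis and uptake, none was called, while 18 had a log2 change above 0, against 50.4% of all genes, with a median of 0.39. For 12 of the 19 all KO libraries lay above all rescue libraries, against 9.54% of all genes. Insig1, which holds back sterol synthesis, had the smallest p (log2 change 0.74, adjusted p = 0.0777).

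Beside Lin37 and Gm8802, 7 genes fell. Aspn, the matrix protein asporin, was at 1.6, 1.83 and 0.669 RPKM in the KO libraries and at 4.75, 5.66 and 2.51 RPKM in the rescue libraries (log2 change -1.36, SE 0.145, adjusted p = 0.0225). Marcksl1, a membrane-bound regulator of actin, was at 6.24, 6.18 and 4.87 RPKM in KO and at 12.4, 12.8 and 12.5 RPKM in rescue libraries (-1.03, adjusted p = 0.0250). Cemip, which takes part in hyaluronan breakdown (-0.98, adjusted p = 0.0408), and Tmem150a (-1.03, adjusted p = 0.0478) likewise had all KO libraries below all rescue libraries. This held for 6 of the 9 genes called lower, against 6.48% of all genes tested. That share, too, largely follows from calls made on the same libraries.

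The other 3 fell after averaging but overlapped between libraries. The mitochondrial leucine tRNA gene mt-Tl2 was at 7.18, 14.9 and 4.20 RPKM in the KO libraries and at 27.8, 51.4 and 7.87 RPKM in the rescue libraries (log2 change -1.73, adjusted p = 0.0173). The pseudogene Gm13339, which shares 28.3% of its stretches of 31 bases with mt-Nd2, was at 2.08, 3.04 and 1.30 RPKM in KO and at 5.61, 8.84 and 1.76 RPKM in rescue libraries (-1.18, adjusted p = 0.0164). Gm10945 was at 0.0793, 0 and 0 RPKM in KO and at 0.656, 1.43 and 0 RPKM in rescue libraries (-1.14, adjusted p = 0.0371). In all 3, rescue library 2 was the highest of the 6 and rescue library 3, its technical replicate, fell within the range of the KO libraries or, for Gm10945, at its lower end. Of 36 mitochondrially encoded genes tested, mt-Tl2 was the only one called and 32 had a log2 change of 0 or below, with a median of -0.41. The levels of 9 mitochondrial mRNAs summed to 3460 to 5320 RPKM in KO and 5570 to 7240 RPKM in rescue libraries, and their part in these values was not tested.

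Calls outside the protein coding genes are given beside the 1.19% of all genes tested that were called higher. Small counts at such a share say nothing particular about a type of gene. The noncoding RNA gene Lockd, which lies downstream of Cdkn1b, was at 2.14, 2.15 and 2.75 RPKM in the KO libraries and at 0.490, 0.622 and 0.314 RPKM in the rescue libraries (log2 change 1.51, SE 0.119, adjusted p = 0.0124). It was the only lincRNA called of 299 tested (0.334%). Of 237 snoRNA genes, Rnu3b1 (1.76, adjusted p = 0.0218) and Gm24907 (1.22, adjusted p = 0.0225) rose, a share of 0.844%. All stretches of Rnu3b1 also stand in other genes. The pseudogenes Ccnb1-ps (1.19) and Mnd1-ps (1.12) rose as well, and Ccnb1-ps shares 78.7% of its stretches with Ccnb1. None of 454 antisense genes was called.

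The study lists the genes that it called changed. It drew its list from this series, which makes the list no independent evidence of direction. Of the 189 genes called higher here, 180 were on the list of up-regulated genes. Of the 9 called lower, 6 were on the list of down-regulated genes, Lin37 and Gm8802 among them. From the other side, 180 of 368 tested genes of the up-regulated list were called in this clone and none was called lower. Those with a maximum in G2/M were called in 81 of 116 cases (median log2 change 1.36), those of G1/S in 38 of 73 (median 1.05), and those without an assigned phase in 61 of 179 (median 0.90). Of the 368, 143 were called without rescue library 2, 68 of them of G2/M, 27 of G1/S and 48 without a phase. For all 368 genes, every KO library of this clone lay above every rescue library, with and without rescue library 2. Of the 76 genes on the study's list of down-regulated genes, 27 reached the level to be tested, and 21 of these were not called. Called higher but on neither list were, among others, Rnu3b1, Gm24907, Ccnb1-ps, Hist1h2ak and Hist2h2ac, and called lower mt-Tl2, Gm13339 and Gm10945.

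The exon 4 clone gave samples that took no part in these calls. It has 2 KO and 2 rescue replicates, treated in the same way, of a clone (411-27) with InDels at exon 4. Of the 189 genes called higher in the exon 6 clone, 186 had a log2 change above 0 in the exon 4 clone, against 42.4% of all 15367 genes tested in both. In 183 of the 189, both exon 4 KO replicates lay above both rescue replicates, against 13.5% of all genes. From 1 fit over both clones, the 189 had a median log2 change of 0.99 (exon 4) and 1.29 (exon 6), where the exon 6 value of genes chosen for being high there is raised by the choice. Of the 9 genes called lower, 8 had a log2 change below 0 in the exon 4 clone, against 57.6% of all genes. Those 8 include Lin37, which the design puts back in the rescue cells of both clones, and Gm8802, which shares sequence with it. Only these 2 of the 9 had an adjusted p under 0.05 in the exon 4 clone (limma, fit over both clones).

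The change did not differ detectably between the clones for any single gene. Of 16866 genes tested for a difference, none passed the threshold (limma interaction of clone and genotype, lowest adjusted p 0.989), while at an unadjusted p under 0.05 the change was larger in the exon 6 clone for 434 genes and smaller for 251. The smallest unadjusted p belonged to Aspn, with log2 changes of -1.31 (exon 6) and 0.17 (exon 4; difference -1.48, unadjusted p = 0.000133, adjusted p = 0.989). In the exon 4 clone Aspn was at 6.83 and 7.06 RPKM in KO and at 5.91 and 6.36 RPKM in rescue replicates. Glrx, glutaredoxin (-0.66 and 0.54), and Gdf5, a growth factor of the BMP family (-0.94 and 0.39), had opposite signs in the exon 6 and exon 4 clones, with adjusted p for the difference of 0.989 and 0.997. Lockd had log2 changes of 1.41 and 0.17 and Rrm2 of 1.17 and 0.40. Lin37 itself had -2.66 and -1.84 (unadjusted p for the difference 0.00413). In the exon 4 clone, Lin37 was at 0.285 and 0.284 RPKM in KO and at 2.54 and 2.12 RPKM in rescue replicates. Its rescue level was thus lower there than in the exon 6 clone, and the part of this in differences between the clones was not tested.

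**Figure D5:**
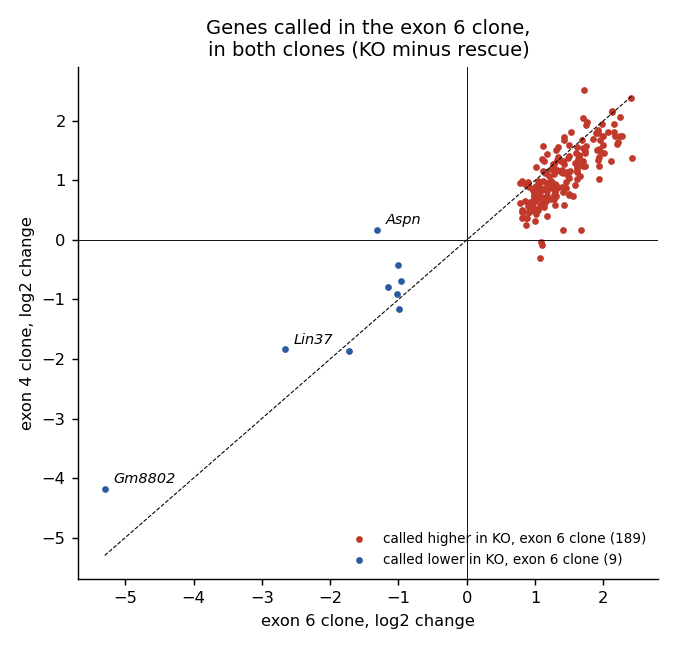
Log2 change (KO minus rescue) in the exon 4 clone (vertical axis) against the exon 6 clone (horizontal axis), from 1 fit over both clones, for the 189 genes called higher (red) and the 9 called lower (blue) in the exon 6 clone, with a dashed line where both are equal. Of the red points, 186 lie above 0 in the exon 4 clone, and Aspn is the blue point above 0.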

How the data were processed

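RNA-seq of serum-starved NIH3T3 cells was analysed for the exon 6 clone (6 libraries) and, for the difference between clones, the exon 4 clone (4 libraries). The authors prepared libraries from total RNA, clipped adapters with cutadapt, mapped reads to mm10 with segemehl and counted them with rnacounter against GENCODE, and deposited RPKM per gene for 45232 entries; Picard 1.89 is named in the submitters' processing notes. The deposited RPKM hold no counts, so the depth of each library is unknown and no counting error is given. How the library total behind them was taken is not given in the sources used here. All 10 columns were matched to samples by their labels.

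Libraries of the clone were rescaled by median of ratios, taken from 9167 genes that averaged 1 RPKM or more and had no 0 (factors 0.266 to 2.20). Libraries 2 and 3 of each group were then averaged. Genes averaging 0.1 RPKM or more were tested on log2(RPKM + 0.5) with limma 3.58.1 (R 4.3.3; lmFit, eBayes with a trend, Benjamini-Hochberg adjustment), 2 KO against 2 rescue replicates. Typical absolute log2 differences (the median of 8332 genes of 1 RPKM or more) were 0.192 and 0.240 between technical libraries of KO and rescue. They were 0.120 and 0.175 between their biological replicates, and 0.139 between the group means. The biological values set library 1 against the mean of libraries 2 and 3, and averaging lowers such differences. Values of single libraries, replicates and group means are therefore not to be ranked against each other. The procedure was run on simulated data in which only genes of 1 RPKM or more changed, so changes at lower levels were not covered.

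Names, positions and types came from GENCODE M21 (44585 of 45232 identifiers found), promoters from RefSeq. Tables were made with Python 3.11.15 and pandas 2.3.3. Named genes were the DREAM genes, the 10 largest rises and falls among called genes whose replicates do not overlap, the 3 called members with the smallest p in each list (or the 1 with the smallest p where none was called), called genes off the study's lists, the genes with the smallest p for a clone difference, the genes assayed elsewhere in the study, and the called gene with the smallest p of each noncoding type. Some genes of the last groups are not printed. The members, the lists and this rule were chosen with earlier results of these data known. The study's edgeR test, run after entries for the repeat GSAT_MM had been taken out, needs counts and was not repeated. The alternatives tried are described with their effect after the results.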

Additional observations from a re-analysis of the deposited data

How the results depend on the processing

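Against 189 genes higher and 9 lower, pseudocounts of 0.1 and 1, quantile normalization, rescaling over all 10 libraries, limma without the trend, technical replicates as separate libraries and the replicate block left both counts within 1.5 times (159 to 266 higher, 7 to 13 lower). Without a minimum level, 36276 genes were tested and 0 were called in either direction (limma, lowest adjusted p 0.347), with 1407 higher and 1366 lower at an unadjusted p under 0.05. With a minimum of 1 RPKM, 91 were higher, 87 of them among the 189; fewer genes were tested there. With the RPKM as deposited, 10040 were higher and 47 lower, since the median of all genes was then 0.689 on the log2 scale. With only library 2 or only library 3 for replicate 2, 70 and 125 were higher and 4 and 4 lower. Without rescue library 2, an alternative chosen after the data were seen, 4 were lower, and with both clones in the fit 5 were; the cause was not tested. Leaving out any replicate, which leaves 1 sample in a group whose spread is taken from the other group, gave 0 to 0 calls in either direction, with 718 to 1515 genes higher and 243 to 1241 lower at an unadjusted p under 0.05.

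The replicates share only a number. Deviations of same-numbered KO and rescue replicates correlated with 0.342 over 8332 genes, and with the replicate block 159 genes were higher and 11 lower, 145 and 7 of them among those called without it. The clone difference gave 0 genes under every alternative except the RPKM as deposited, with 7, and its leave-one-out counts were 0 to 0.

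Of 60 printed genes that were called, 29 lost the call with library 2 only, 15 with library 3 only, 12 with both clones, 9 without rescue library 2, 8 with technical replicates separate, 6 with the RPKM as deposited, 5 with the replicate block, 4 without the trend, 2 and 1 with a pseudocount of 0.1 and quantile normalization, and all 60 without a minimum level or without any 1 replicate; none changed direction. The count of members called higher moved by over 1.5 times in 25 of 27 gene lists with the RPKM as deposited, 14 without a minimum level, 11 with library 2 only, 9 with a minimum of 1 RPKM, 5 with library 3 only, 3 with the replicate block, 2 with both clones, 2 with technical replicates separate, 1 without the trend and 1 without rescue library 2. Printed genes that were not called and changed direction were, with the RPKM as deposited, E2f4 (0.735), Ccnd2 (0.45), Plk2 (0.588), Pdgfra (0.407) and Rpl29 (0.326); with library 2 only, Lin52 (-0.0342) and Rbbp4 (-0.0569); with quantile normalization, Rbbp4 (-0.0199); without KO replicate 1, Lin52 (-0.169); without KO replicate 2, Rbbp4 (-0.0586); and without rescue replicate 1, Rbbp4 (-0.0893) and Tfdp1 (-0.0795). Over the leave-one-out settings, Lin52 ranged from -0.169 to 0.395, Rbbp4 from -0.0893 to 0.124 and Tfdp1 from -0.0795 to 0.413.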

Other observations

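Some genes that rose in the exon 6 clone belong to none of the gene lists by function used here, and were picked after their values were seen. Rnaseh2c, Ulbp1 and Xpo1 are on the study's own list of up-regulated genes. Rnaseh2c, a subunit of the nuclease that removes RNA from DNA, was at 11, 9.10 and 11.6 RPKM in the KO libraries and at 2.34, 2.67 and 2.05 RPKM in the rescue libraries (log2 change 1.97, adjusted p = 0.0111, limma). Ulbp1, a ligand of the natural killer cell receptor NKG2D, was at 5.63, 6.17 and 4.64 RPKM in KO and at 1.25, 1.67 and 1.57 RPKM in rescue libraries (log2 change 1.64, adjusted p = 0.0128). Xpo1, the export receptor of the nucleus, had a log2 change of 1.05 (adjusted p = 0.0381) and Gpnmb, a membrane glycoprotein, of 0.84 (adjusted p = 0.0442). The groups did not overlap for these genes. In the exon 4 clone, their log2 changes were 1.53, 0.93, 0.79 and 0.36.

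The genes of the study's up-regulated list did not overlap between the KO and rescue libraries of the exon 6 clone in 368 of 368 tested cases, against 9.54% of all genes. In the exon 4 clone, 351 of 362 had a log2 change above 0, against 42.4% of all genes, with a median of 0.69 there and 0.97 in the exon 6 clone from the same fit. The study drew its list from this series, which holds both clones, so neither comparison is independent evidence. Pnma5, which was called higher in the exon 6 clone (log2 change 1.18, adjusted p = 0.0229), was at 0, 0, 0 and 0.0186 RPKM in the exon 4 clone.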
